A study of Homo sapiens with 7 samples.

Results

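The genes that copy DNA and supply its nucleotides were followed in 501Mel cells, a human melanoma line, after induction of short hairpin RNAs against the long non-coding RNA GRASLND. The set held 50 genes in 11 roles, chosen by name and matched on the gene symbol, and all 50 were found among the 21305 genes of the table. All 7 libraries came from the same line, and all had been given doxycycline, which switches on the hairpin. The control hairpin targets lacZ of bacteria (shlacZ, n = 3), and the GRASLND hairpins were sh4 (n = 2) and sh8 (n = 2). Per the methods of the study, the hairpins were carried by the lentiviral vector Tet-pLKO-puro, and the cells were puromycin-selected pools rather than single clones. The labels do not tie sh4 and sh8 to the names shGRAS1 and shGRAS2 of the listed target sequences. No library of uninduced or untransduced cells was used here, so an effect of the vector or of doxycycline is shared by all groups. The labels do not say whether replicates were separate cultures, so each p-value measures the spread between these libraries, which may be technical.

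In a dividing cell, origins of replication are licensed in G1 phase, when the origin recognition complex, CDC6 and CDT1 load the MCM helicase onto DNA. In S phase CDC45 and the GINS complex join MCM to form the active helicase. Primase and polymerase alpha start each strand, the clamp loader RFC places the sliding clamp PCNA, and polymerases delta and epsilon extend the strands. RPA covers single-stranded DNA, and FEN1 and ligase 1 join the Okazaki fragments. Ribonucleotide reductase and thymidylate synthase make the deoxynucleotides. Many of these genes are transcribed periodically, with a peak around the entry into S phase, under E2F transcription factors.

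Reads counted in the genes of the table ranged from 13337317 to 22855232 per library. Every one of the 50 genes lay far above the minimum mean of 10 normalized counts, with control means from 282 (POLE2) to 5757 (MCM4). A normalized count is a read count divided by the size factor of its library. The targeted GRASLND had normalized counts of 309, 329.9 and 289.7 under shlacZ, 175 and 131 under sh4, and 227 and 163 under sh8, and its log2 fold change was -0.85 (SE 0.19, adjusted p 0.0402) in both hairpins together against the control. It passed under sh4, at -1.02 (adjusted p 0.00662), but not under sh8, at -0.68 (adjusted p 0.11). Both sh8 libraries still lay under all controls, and the difference of sh4 minus sh8 was -0.34 (adjusted p 0.421). By RT-qPCR the paper reports a significant reduction of GRASLND with both of its hairpins. All 7 melanocyte lineage markers (MITF, SOX10, PMEL, MLANA, TYR, TYRP1, DCT) were present. Their sum was 135580 to 146340 under shlacZ, 51868 to 59737 under sh4 and 101540 to 104480 under sh8. Of the 7, 6 were called lower under sh4 but 0 under sh8, against 11.9% and 1.54% of all genes tested. Of 17 markers of keratinocytes, fibroblasts, leukocytes and endothelial cells, only KRT10, COL1A1 and LYZ were in the table, and PTPRC, KRT5, KRT14, DCN and PECAM1 were among those not listed. LYZ was 337 and 492 under sh4 and at most 7.28 in the other 5 libraries. The melanocyte markers and LYZ thus differed most under sh4, the hairpin with more calls among the replication genes, and their part in the results was not tested. The first shlacZ library stood apart from the other controls in its pattern over the genes. The SD of the log2 difference over the 50 genes was 0.25 and 0.238 between it and the other controls, and 0.115 between these. It was the lowest control in 31 genes. In level the second shlacZ library lay as far on the other side, as the highest control in 36 genes. The median log2 ratio of the 50 genes to the control mean was -0.125, 0.126 and -0.0066 in the 3 controls. For both hairpins together, the genes called without the first shlacZ library are named. Without the second, 0 of the 50 were called, against 0.123% of all genes tested.

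The replication genes were lower under both hairpins, and the size was modest. The summed normalized count of the 50 genes was 93.0%, 107.7% and 99.3% of the control mean in the shlacZ libraries. It was 71.5% and 78.7% under sh4, and 82.1% and 73.8% under sh8. Each knockdown library thus lay under each control library. The median gene had a mean 24.2% lower in the 4 knockdown libraries than in the 3 controls, 26.1% lower under sh4 and 21.9% lower under sh8. For both hairpins combined against shlacZ, the log2 fold change was below 0 in 48 of the 50 genes, with a median of -0.40, while the median of all 15420 genes tested was -0.0063 and 50.6% of these were below 0. The 2 genes above 0 were ORC3 (0.051) and TIMELESS (0.034).

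**Figure D1:**
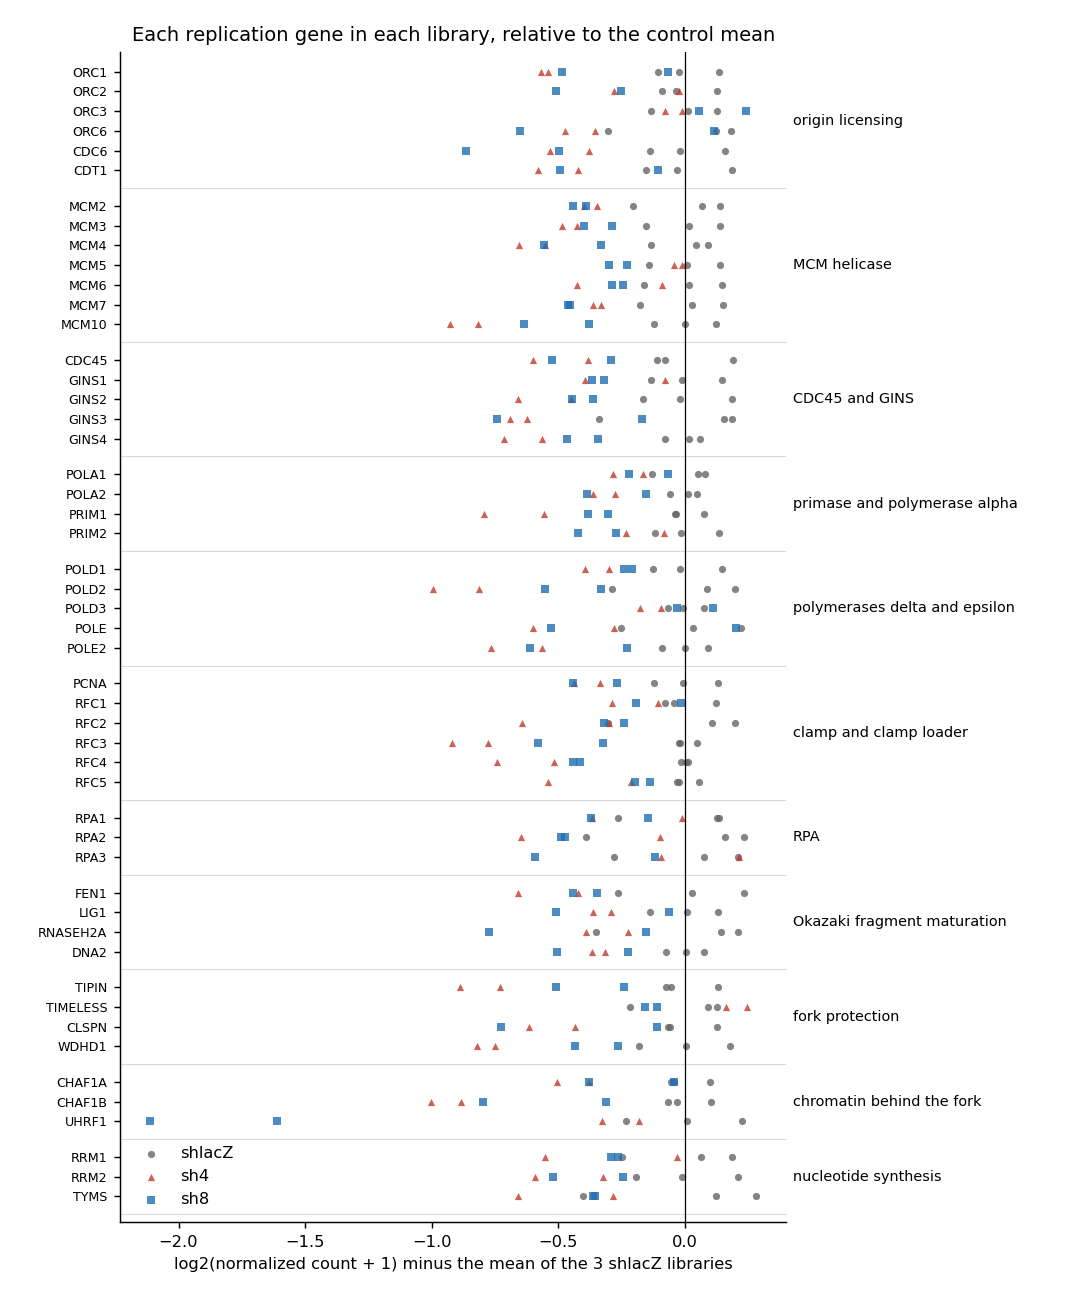
Each row is a replication gene, grouped by role, and each point is a library (grey circles shlacZ, red triangles sh4, blue squares sh8). The x axis is log2(normalized count + 1) minus the mean of the 3 shlacZ libraries. The knockdown points lie left of the controls in most rows, and the 2 sh8 points of UHRF1 lie farthest left.

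Of single genes, 7 of 50 (14%) passed the test as lower at a Benjamini-Hochberg adjusted p under 0.05 in limma, against 2.06% of all genes tested. They were the licensing factor CDC6, the helicase subunit MCM4, the initiation factor MCM10, the GINS subunit GINS4, the clamp loader subunits RFC3 and RFC4, and the chromatin assembly subunit CHAF1B. None passed as higher, where the share of all genes was 2.55%. None reached the rule of the study, which adds a log2 fold change beyond 1 and called 0.694% of all genes lower. At an unadjusted p under 0.05 in limma, 32 genes were lower and 0 higher, against 12.9% and 11.2% of all genes tested. In 25 of the 50 genes (50%) all 4 knockdown libraries lay under all 3 controls, which held for 11.0% of all genes tested, and in 0 genes did they lie over them, against 10.2%. The median log2 fold change stayed between -0.48 and -0.31 in all alternatives, but the number of calls did not stay at 7. It was 0 when the second or the third shlacZ library or either sh4 library was left out, 2 without the second sh8 library (POLD2 and WDHD1) and 11 without the first, while the share of all genes called lower ran from 0.123% to 3.53% in these fits. Without the first shlacZ library it was again 7, with MCM4 and MCM10 shared and with FEN1, MCM2, MCM7, POLD2 and TYMS in place of the others, against 2.22% of all genes. The groups then separated in 38 genes rather than 25, and in 22.9% of all genes. When sh4 and sh8 were fitted as separate groups and their mean compared with shlacZ, 21 genes were called lower, but so were 8.77% of all genes. It was 0 when the variance trend was left out, with 0.292% of all genes called. In bulk RNA, fewer cells in S phase and less of these transcripts per cell cannot be told apart.

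The plot of normalized counts shows the 7 genes called lower, with UHRF1, and control and knockdown points overlap only for UHRF1 under sh4. The 7 were picked by the test on these same libraries, so their separation in the plot is no further support.

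**Figure D2:**
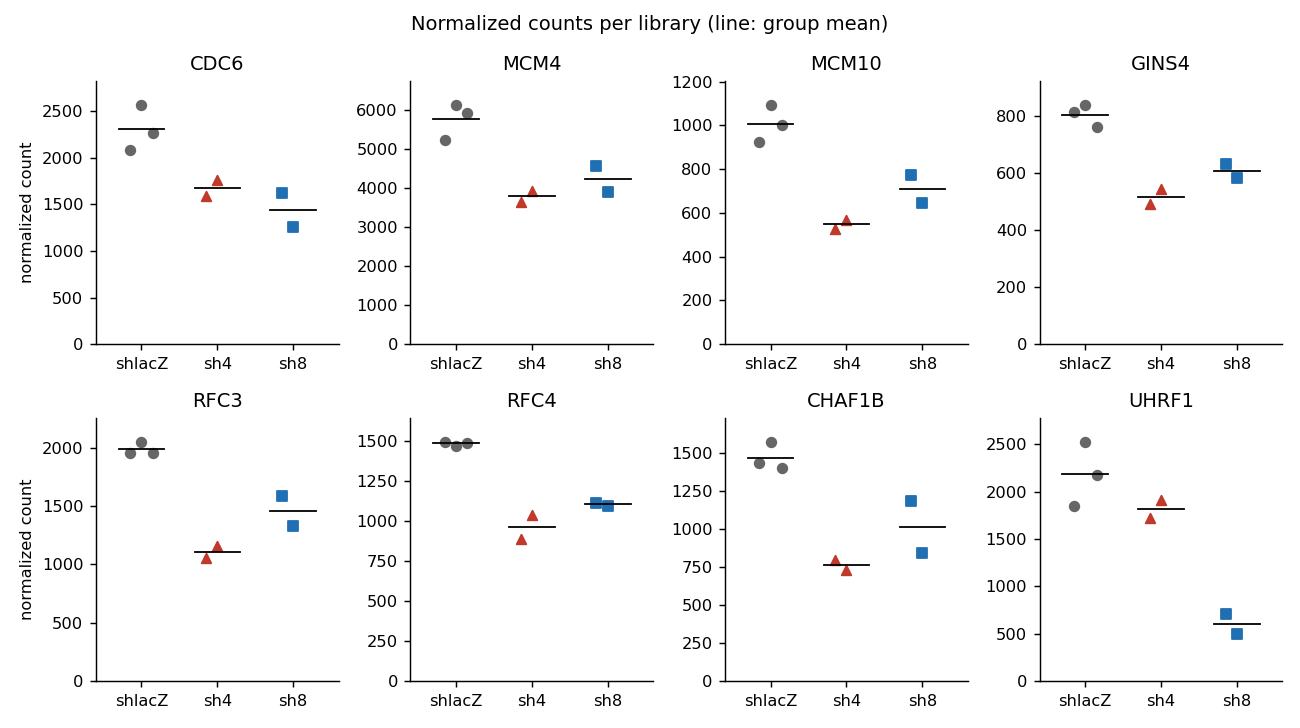
Normalized counts of 8 genes on axes that start at 0, with 1 point per library and a line at each group mean. In CDC6, MCM4, MCM10, GINS4, RFC3, RFC4 and CHAF1B all sh4 and sh8 points lie under all shlacZ points, and in UHRF1 the 2 sh8 points lie at 501 and 708 while sh4 lies within reach of the controls.

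Many of these genes are known E2F targets. The promoters of the 4 with the lowest log2 fold change that held an E2F-like site are shown. They are UHRF1, which recruits the maintenance DNA methyltransferase to newly copied DNA, RFC3, TIPIN, a subunit of the fork protection complex, and CDC6. The letters are from the RefSeq promoter table on GRCh38.p14, from 250 bases before the annotated start, written on the strand of the gene. Capitals mark the E2F-like site, searched on both strands as TTTCCCGC, TTTGGCGC, TTTCGCGC or TTTGCCGC. UHRF1 has more than 1 annotated start, and 2 of its windows held a site. The CDC6 run is 265 bases and ends with its site, which begins 8 bases into the transcript.
UHRF1, first start (chr19:4909251-4909500, plus strand): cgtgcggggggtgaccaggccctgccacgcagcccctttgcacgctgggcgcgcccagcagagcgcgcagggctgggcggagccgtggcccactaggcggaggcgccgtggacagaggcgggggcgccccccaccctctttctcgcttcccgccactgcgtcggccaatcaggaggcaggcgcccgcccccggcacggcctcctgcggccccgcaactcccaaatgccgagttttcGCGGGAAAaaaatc
UHRF1, second start (chr19:4909894-4910143, plus strand): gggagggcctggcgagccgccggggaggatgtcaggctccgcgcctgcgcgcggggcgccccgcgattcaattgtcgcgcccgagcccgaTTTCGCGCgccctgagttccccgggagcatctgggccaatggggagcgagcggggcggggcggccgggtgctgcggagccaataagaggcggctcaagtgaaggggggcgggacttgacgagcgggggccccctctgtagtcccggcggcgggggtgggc
RFC3 (chr13:33817899-33818148, plus strand): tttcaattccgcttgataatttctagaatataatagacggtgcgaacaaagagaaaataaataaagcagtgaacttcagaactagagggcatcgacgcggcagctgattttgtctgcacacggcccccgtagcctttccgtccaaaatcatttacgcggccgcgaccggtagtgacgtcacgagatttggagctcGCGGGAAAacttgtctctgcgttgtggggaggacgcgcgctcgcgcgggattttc
TIPIN (chr15:66356686-66356935, minus strand): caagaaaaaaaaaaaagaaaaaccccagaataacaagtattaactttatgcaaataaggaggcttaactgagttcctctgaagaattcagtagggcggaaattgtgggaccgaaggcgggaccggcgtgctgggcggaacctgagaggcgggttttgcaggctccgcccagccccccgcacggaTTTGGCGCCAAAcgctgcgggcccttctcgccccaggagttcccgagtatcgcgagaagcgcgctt
CDC6 (chr17:40287629-40287893, plus strand): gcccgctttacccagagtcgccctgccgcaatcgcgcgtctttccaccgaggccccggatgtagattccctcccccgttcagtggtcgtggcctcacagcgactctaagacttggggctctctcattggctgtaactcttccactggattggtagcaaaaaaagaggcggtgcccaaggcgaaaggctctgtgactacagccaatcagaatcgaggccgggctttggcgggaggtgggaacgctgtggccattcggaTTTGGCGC

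The site began 14 bases before the first UHRF1 start, 160 before the second and 55 before the RFC3 start. In TIPIN 2 sites on opposite strands overlapped in a palindrome that began 66 bases before the start. RefSeq windows were found for 43 of the 50 genes, and not for MCM4, MCM5, GINS4, POLD3, RPA2, RPA3 and DNA2. An E2F-like site was in a window of 21 of these 43 genes (48.8%), against 6.82% of the 10448 tested genes with a window. By window it was in 22 of their 54 (40.7%), against 3.31% of all 35116 windows. A CCAAT box was in 28 genes (65.1%), against 44.1% of tested genes, and in 63.0% of the 54 windows, against 34.6% of all windows. The cell cycle homology region, as TTTGAA, was in 1 gene (RRM1, 2.33%), against 14.1% of tested genes. By window it was in 1.85%, against 15.2% of all windows. The median log2 fold change was -0.40 in the 21 genes with an E2F-like site and -0.39 in the 22 without. Since the set holds many known E2F targets, these shares are a description, and a part of E2F was not tested.

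Among the 6 origin licensing genes, CDC6 was the only call in both hairpins together, against 2.06% of all genes tested called lower. CDC6, which with ORC loads MCM onto origins, had normalized counts of 2089, 2568 and 2269 under shlacZ, 1591 and 1767 under sh4, and 1628 and 1262 under sh8. Every knockdown library lay under every control. Its log2 fold change was -0.57 (SE 0.14, adjusted p 0.0493) for both hairpins, -0.46 (adjusted p 0.0485) for sh4 and -0.68 (adjusted p 0.0376) for sh8. CDT1, its partner in loading, had 609, 769.9 and 663 under shlacZ, 505 and 452 under sh4, and 481 and 629.8 under sh8. The first sh8 and both sh4 libraries of CDT1 were lower than all controls, whereas the second sh8 library (629.8) lay among them, and the log2 fold change of -0.40 (adjusted p 0.146) did not pass. The ORC genes, which mark the origins, were uneven. ORC3 counted 652, 545 and 603 under shlacZ, 566 and 593 under sh4, and 622 and 708 under sh8, with the sh4 libraries among the controls, the second sh8 library above them, and a log2 fold change of 0.051 (adjusted p 0.846). ORC1, ORC2 and ORC6 had log2 fold changes from -0.42 to -0.27, and ORC1 was called under sh4 (log2 fold change -0.55, adjusted p 0.0269).

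All 7 MCM genes were below 0, and their log2 fold changes ranged from -0.69 to -0.15. MCM4 had the highest counts, 5228, 6125 and 5918 under shlacZ, 3646 and 3919 under sh4, and 4559 and 3908 under sh8, at a log2 fold change of -0.52 (SE 0.12, adjusted p 0.0402). MCM5 was at the other end, with 2299, 2793 and 2555 under shlacZ, 2522 and 2463 under sh4, and 2166 and 2062 under sh8, and a log2 fold change of -0.15 (adjusted p 0.497). Under sh4 MCM5 lay within the controls, and both sh8 libraries lay under them. MCM2 counted 1607, 2036 and 1942 under shlacZ, 1453 and 1405 under sh4, and 1363 and 1413 under sh8, and MCM7 counted 3143, 3944 and 3629 under shlacZ, 2766 and 2822 under sh4, and 2593 and 2585 under sh8. In both genes the 4 knockdown libraries were under the 3 controls, and the adjusted p was 0.082 and 0.073. Without the first control both passed (0.045 and 0.0481), but each stayed above the threshold in 16 of 18 alternatives. MCM3 had 3657, 4484 and 4115 under shlacZ, 2906 and 3030.2 under sh4, and 3336 and 3089.7 under sh8, was lower in all 4 knockdown libraries and was called under sh4 (log2 fold change -0.46, adjusted p 0.0228). MCM6 had 1892, 2343 and 2139 under shlacZ, 1574 and 1988 under sh4, and 1785 and 1733 under sh8, so that its second sh4 library overlapped the controls. MCM10, which joins the helicase when it is activated, had the lowest log2 fold change of the 7, -0.69 (SE 0.15, adjusted p 0.036), from 924, 1093.5 and 1004 under shlacZ, 527 and 569 under sh4, and 772 and 647 under sh8. Its sh4 libraries lay under its sh8 libraries and these under the controls, and the difference between hairpins was -0.37 (adjusted p 0.187).

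The 5 genes that turn the loaded ring into an active helicase were all below 0. CDC45 counted 669, 824 and 684 under shlacZ, 477 and 554 under sh4, and 591 and 501 under sh8, without overlap, and passed under sh4 (log2 fold change -0.49, adjusted p 0.0451) but not in both hairpins together (log2 fold change -0.45, adjusted p 0.0861). GINS4 was called, -0.52 (SE 0.13, adjusted p 0.0498), from 803 ± 39.0 (SD, n = 3) under shlacZ to 516 ± 37.9 (n = 2) under sh4 and 606 ± 36.5 (n = 2) under sh8. GINS3 had the lowest log2 fold change of the complex, -0.56 (adjusted p 0.122), but its counts of 297, 428 and 419 under shlacZ, 233 and 244 under sh4, and 335 and 225 under sh8 overlapped, since the first control was under the first sh8 library. GINS1 had the highest, -0.29 (adjusted p 0.192), with 1680.2, 2039 and 1830.3 under shlacZ, 1404 and 1744 under sh4, and 1479 and 1431 under sh8, and its second sh4 library lay among the controls. GINS2 was called under sh4 (log2 fold change -0.55, adjusted p 0.0315).

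Of the 4 primase and polymerase alpha genes, none passed in both hairpins together, against 2.06% of all genes tested called lower. At an unadjusted p under 0.05 in limma, 2 were lower, against 12.9%. PRIM1, the catalytic primase subunit, had 1281, 1286 and 1386 under shlacZ, 759 and 895 under sh4, and 1009.7 and 1066 under sh8. The groups did not overlap, and its log2 fold change was -0.51 (adjusted p 0.0648) for both hairpins and -0.68 (adjusted p 0.00444) for sh4. POLA1, the catalytic subunit of polymerase alpha, counted 3024, 2964 and 2618 under shlacZ, 2351 and 2551 under sh4, and 2731 and 2459 under sh8, at a log2 fold change of -0.18 (adjusted p 0.337). Its first sh8 library lay among the controls. POLA2 and PRIM2 had log2 fold changes of -0.30 and -0.25.

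None of the 5 polymerase delta and epsilon genes passed in both hairpins together, against 2.06% of all genes tested called lower. At an unadjusted p under 0.05 in limma, 2 were lower, against 12.9%. Their log2 fold changes ranged from -0.67 (POLD2) to -0.049 (POLD3). POLD2, the regulatory subunit of polymerase delta, had 1646, 2304 and 2134 under shlacZ, 1007 and 1142 under sh4, and 1369.5 and 1594 under sh8. Its log2 fold change was -0.67 (adjusted p 0.0606) for both hairpins and -0.90 (adjusted p 0.00356) for sh4, which was called. Its first control was far under the other controls, and without that library POLD2 was also called in both hairpins together and between hairpins. For both hairpins together POLD2 stayed above the threshold in 14 of 18 alternatives. POLD3, an accessory subunit of the same enzyme, counted 639.9, 579 and 605 under shlacZ, 536 and 568 under sh4, and 656 and 593 under sh8 and had a log2 fold change of -0.049 (adjusted p 0.842), with both sh4 libraries just under the controls and the sh8 libraries among or above them. POLE, the large catalytic subunit of polymerase epsilon, spanned 2463 to 4090 within sh8 and 2986 to 4148 within shlacZ. POLE2 was called under sh4 (log2 fold change -0.67, adjusted p 0.0257).

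The sliding clamp PCNA had the highest level per length of all 50 genes. It counted 4519, 5383 and 4888 under shlacZ, 3631 and 3891 under sh4, and 4077 and 3617 under sh8, so that all knockdown libraries were under all controls, with a log2 fold change of -0.37 (adjusted p 0.0836) for both hairpins and -0.39 (adjusted p 0.0434) for sh4. The 5 subunits of the loader that opens this ring ranged from -0.65 to -0.15. RFC3 had 1959, 2053 and 1954 under shlacZ, 1051 and 1158 under sh4, and 1587 and 1329.6 under sh8, without overlap, and a log2 fold change of -0.65 (SE 0.15, adjusted p 0.0383). RFC4 was 1487 ± 14.8 (SD, n = 3) under shlacZ, 963 ± 106 (n = 2) under sh4 and 1106 ± 14.6 (n = 2) under sh8, at a log2 fold change of -0.53 (SE 0.12, adjusted p 0.0383). RFC1, the large subunit, had 2483, 2213 and 2157 under shlacZ, 1867 and 2118 under sh4, and 2253 and 1995 under sh8, and a log2 fold change of -0.15 (adjusted p 0.451), with the first sh8 library among the controls. RFC2 and RFC5 had log2 fold changes of -0.38 and -0.27.

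The 3 RPA genes, which coat single-stranded DNA, overlapped between control and knockdown in every case. So did most genes tested, since 11.0% had all knockdown libraries under all controls and 10.2% had them over all controls. RPA2 counted 610.0, 942 and 894 under shlacZ, 510.5 and 747 under sh4, and 569 and 576 under sh8, at a log2 fold change of -0.43 (adjusted p 0.194). Its first control was under the second sh4 library. RPA3 counted 419, 589 and 536 under shlacZ, 477 and 591 under sh4, and 337 and 469 under sh8, at a log2 fold change of -0.15 (adjusted p 0.685), and its second sh4 library was above every control. RPA1 had a log2 fold change of -0.22. Of the 4 genes that finish the Okazaki fragments, FEN1, the flap endonuclease, had 1850.5, 2613 and 2265 under shlacZ, 1406 and 1658 under sh4, and 1744 and 1635 under sh8, without overlap. Its log2 fold change was -0.47 (adjusted p 0.0847), or -0.60 (adjusted p 0.0461) without the first control. In 16 of 18 alternatives FEN1 stayed above the threshold for both hairpins together. It was called under sh4 (log2 fold change -0.54, adjusted p 0.0322). LIG1, which seals the nick, had 977, 897 and 812 under shlacZ, 729.6 and 694 under sh4, and 854 and 627 under sh8, and a log2 fold change of -0.31 (adjusted p 0.211). Its first sh8 library lay among the controls. RNASEH2A and DNA2, nucleases that act on primers and flaps, had log2 fold changes of -0.39 and -0.35.

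TIPIN and TIMELESS encode the subunits of 1 heterodimer that travels with the fork, and their log2 fold changes were at different ends of the set. TIPIN counted 576, 656 and 567 under shlacZ, 323 and 359.7 under sh4, and 506 and 419.5 under sh8, with no overlap, and had log2 fold changes of -0.59 (adjusted p 0.0727) for both hairpins and -0.81 (adjusted p 0.0046) for sh4. TIMELESS counted 1249.8, 1587 and 1547 under shlacZ, 1626 and 1720.3 under sh4, and 1346 and 1302 under sh8. Both sh4 libraries of TIMELESS were above every control, both sh8 libraries were within them, and the log2 fold change of 0.034 turned below 0 without the first shlacZ library (-0.074) or without either sh4 library (-0.0083 and -0.035). CLSPN, the checkpoint adaptor claspin, had a log2 fold change of -0.47 (adjusted p 0.101). WDHD1, which links the helicase to polymerase alpha, had a log2 fold change of -0.57 (adjusted p 0.0706) for both hairpins and was called under sh4 (log2 fold change -0.78, adjusted p 0.00315).

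CHAF1A and CHAF1B are subunits of the factor that deposits histones behind the fork. CHAF1B fell from 1471 ± 92.8 (SD, n = 3) to 765 ± 44.7 (n = 2) under sh4 and was 1014 ± 240.4 (n = 2) under sh8. Its log2 fold change of -0.75 (SE 0.17, adjusted p 0.0361) was the lowest of the 7 calls. CHAF1A counted 1899, 1723 and 1706 under shlacZ, 1363 and 1249 under sh4, and 1723 and 1365 under sh8, and it was called under sh4 (log2 fold change -0.44, adjusted p 0.039) but not in both hairpins together (log2 fold change -0.33, adjusted p 0.168). The first sh8 library of CHAF1A lay among the controls.

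UHRF1 was the only one of the 50 genes called between the hairpins. Its counts were 1844, 2528 and 2178 under shlacZ, 1726 and 1909.9 under sh4, and 708 and 501 under sh8. The sh4 libraries lay on both sides of the lowest control, while both sh8 libraries were far under all others. Under sh8 the log2 fold change was -1.86 (SE 0.18, adjusted p 0.00102), a mean 72.3% lower, and it was the only gene of the set past the rule of the study, which called 0.506% of all genes lower in that comparison. Under sh4 it was -0.25 (SE 0.18, adjusted p 0.337). The difference of sh4 minus sh8 was 1.61 (SE 0.19, adjusted p 0.00194), and both remained past the threshold in every alternative run, at -2.11 to -1.61 for sh8 and 1.36 to 1.86 for the difference. The pooled value of -1.06 (SE 0.41, adjusted p 0.156) averaged over both hairpins and did not pass, but passed where sh4 and sh8 were fitted as separate groups.

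Nucleotide synthesis was covered by 3 genes, none of which passed in both hairpins together, against 2.06% of all genes tested called lower. At an unadjusted p under 0.05 in limma, 2 were lower, against 12.9%. RRM1, the large subunit of ribonucleotide reductase, counted 2580.2, 3486 and 3207 under shlacZ, 2090.4 and 2997 under sh4, and 2506 and 2556 under sh8, at a log2 fold change of -0.29 (adjusted p 0.279) and its second sh4 library among the controls. RRM2, the small subunit whose level follows S phase, counted 3286, 4346 and 3726 under shlacZ, 2496 and 3008 under sh4, and 3171 and 2624 under sh8, without overlap, and had a log2 fold change of -0.42 (adjusted p 0.102). TYMS, thymidylate synthase, counted 2360.3, 3786 and 3392 under shlacZ, 1972 and 2562 under sh4, and 2423 and 2436 under sh8, at a log2 fold change of -0.42 (adjusted p 0.171). In all 3 the first control was under the other controls, and without it TYMS was called. TYMS stayed above the threshold in 17 of 18 alternatives.

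The hairpins were then taken on their own. They share the 3 control libraries, so the values are set side by side. Under sh4, 19 of 50 genes (38%) were called lower, against 11.9% of all genes tested, and the median log2 fold change was -0.43. Under sh8, 2 of 50 (4%), CDC6 and UHRF1, were called lower, against 1.54%, and the median was -0.36. None was called higher under either hairpin in limma, where the shares of all genes were 10.5% for sh4 and 1.38% for sh8, and none was higher at an unadjusted p under 0.05, against 17.2% and 8.85%. Under sh4 0 genes passed the rule of the study, against 3.37%. Below 0 were 48 genes in each. At an unadjusted p under 0.05 there were 31 lower genes under sh4 and 28 under sh8, against 18.9% and 9.69% of all genes tested. The number of calls under sh4 was 29 without the first shlacZ library, 10 without the second or the third, 6 without the first sh4 library and 10 without the second. The share of all genes called lower was 17.2% without the first shlacZ library and 5.36% to 7.42% without any of the other 4. Under sh8 it was 13 without the first shlacZ library and 1 (UHRF1) without any one of the other 6 libraries. The share of all genes was 5.74% in the first case and 0.188% to 1.09% in the others.

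**Figure D3:**
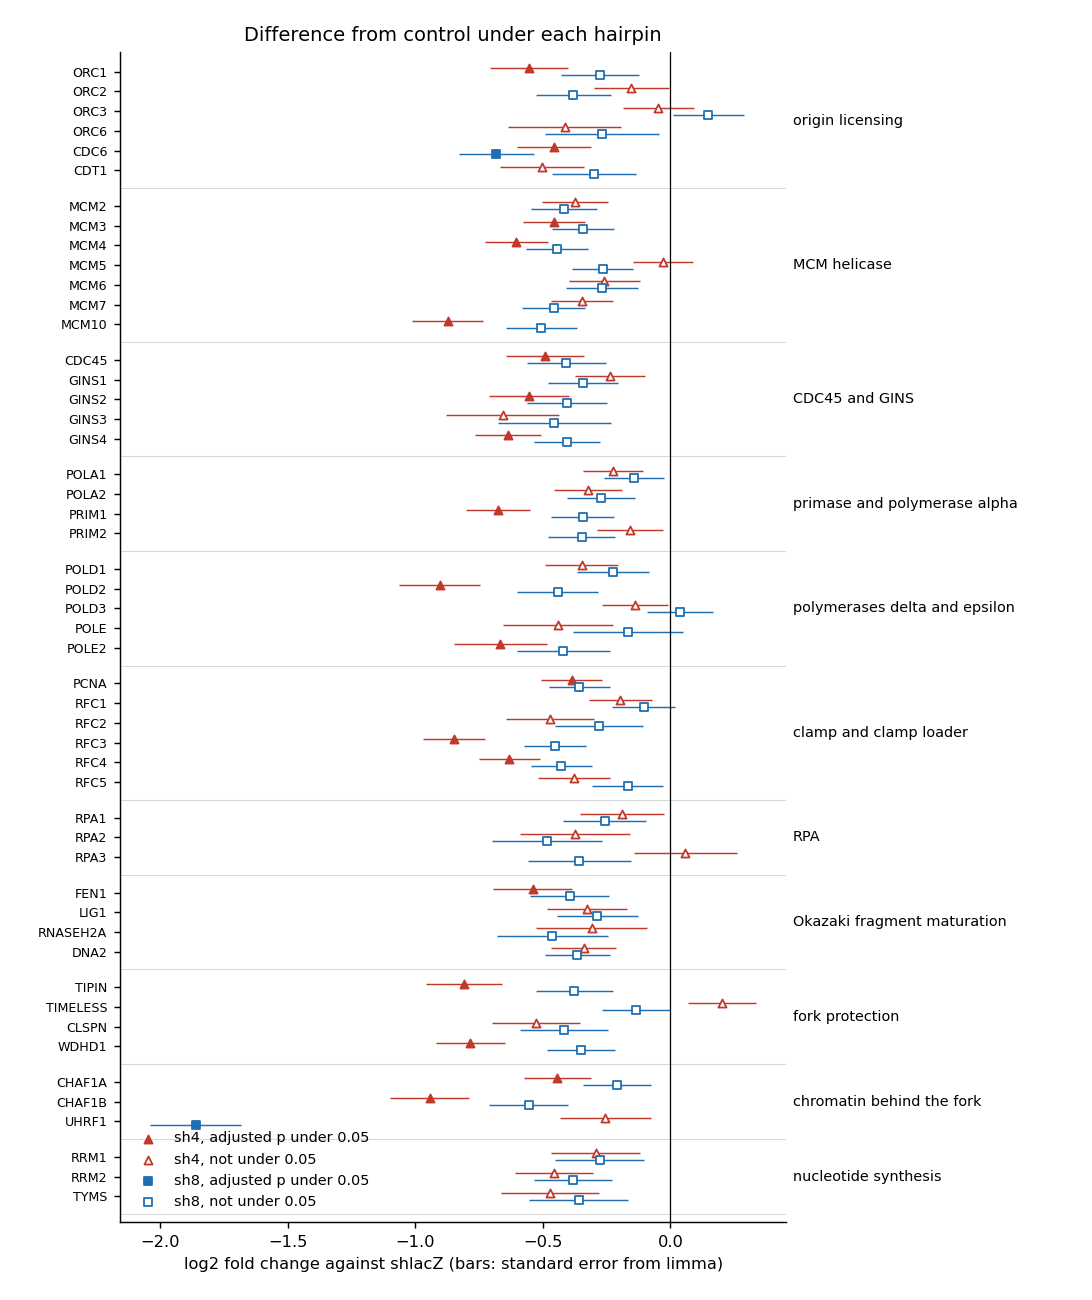
Log2 fold change of each gene against shlacZ under sh4 (red triangles) and sh8 (blue squares), with bars of 1 standard error from limma. Filled symbols had an adjusted p under 0.05, which were 19 for sh4 and 2 for sh8, although most points of both lie left of 0.

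The test of sh4 against sh8 itself called 0 genes lower under sh4 and 1 higher, UHRF1, against 3.33% and 3.67% of all genes tested. At an unadjusted p under 0.05, 7 genes were lower under sh4 and 2 higher, against 11.3% of all genes tested in each direction. The excess of calls under sh4 was thus not shown to be a difference between hairpins for any single gene. UHRF1 was not among the calls of sh4 against shlacZ, and its difference ran the other way. Without the first shlacZ library, which enters only through the shared estimate of the spread, POLD2 and WDHD1 were called lower under sh4 than sh8. The median difference was -0.11, and 35 genes were lower under sh4. In 17 genes both sh4 libraries were under both sh8 libraries, and in 6 genes over them, which held for 27.6% and 26.6% of all genes tested. The genes with both sh4 libraries under sh8 included MCM10 (log2 difference -0.37, SE 0.15, adjusted p 0.187), RFC3 (log2 difference -0.40, SE 0.13, adjusted p 0.111), POLD2 (log2 difference -0.46, SE 0.17, adjusted p 0.151) and TIPIN (log2 difference -0.43, SE 0.16, adjusted p 0.152). TIMELESS (log2 difference 0.34, SE 0.15, adjusted p 0.205) was on the other side.

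Ratios of 2 genes within a library do not depend on the size factor. The pairs were chosen after their values had been seen, and no test was made. TIPIN over TIMELESS was 0.461, 0.413 and 0.367 under shlacZ, 0.199 and 0.209 under sh4, and 0.376 and 0.322 under sh8. The sh4 ratios were lowest, and the first sh8 ratio was above the lowest control. RFC3 over RFC1 was 0.789, 0.928 and 0.906 under shlacZ, 0.563 and 0.547 under sh4, and 0.705 and 0.666 under sh8. MCM4 over MCM5 was 2.27, 2.19 and 2.32 under shlacZ, 1.45 and 1.59 under sh4, and 2.10 and 1.90 under sh8. In both pairs all 4 knockdown ratios were under all 3 control ratios. CHAF1B over CHAF1A was 0.756, 0.915 and 0.821 under shlacZ, 0.584 and 0.587 under sh4, and 0.687 and 0.618 under sh8, again without overlap. POLD2 over POLD3 was 2.57, 3.98 and 3.53 under shlacZ, 1.88 and 2.01 under sh4, and 2.09 and 2.69 under sh8, where the second sh8 library overlapped the first control. RRM2 over RRM1 overlapped between all groups, from 1.004 to 1.27. UHRF1 over PCNA was 0.408, 0.470 and 0.446 under shlacZ, 0.475 and 0.491 under sh4, and 0.174 and 0.138 under sh8, with the sh4 ratios just above the controls and the sh8 ratios far under them.

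**Figure D4:**
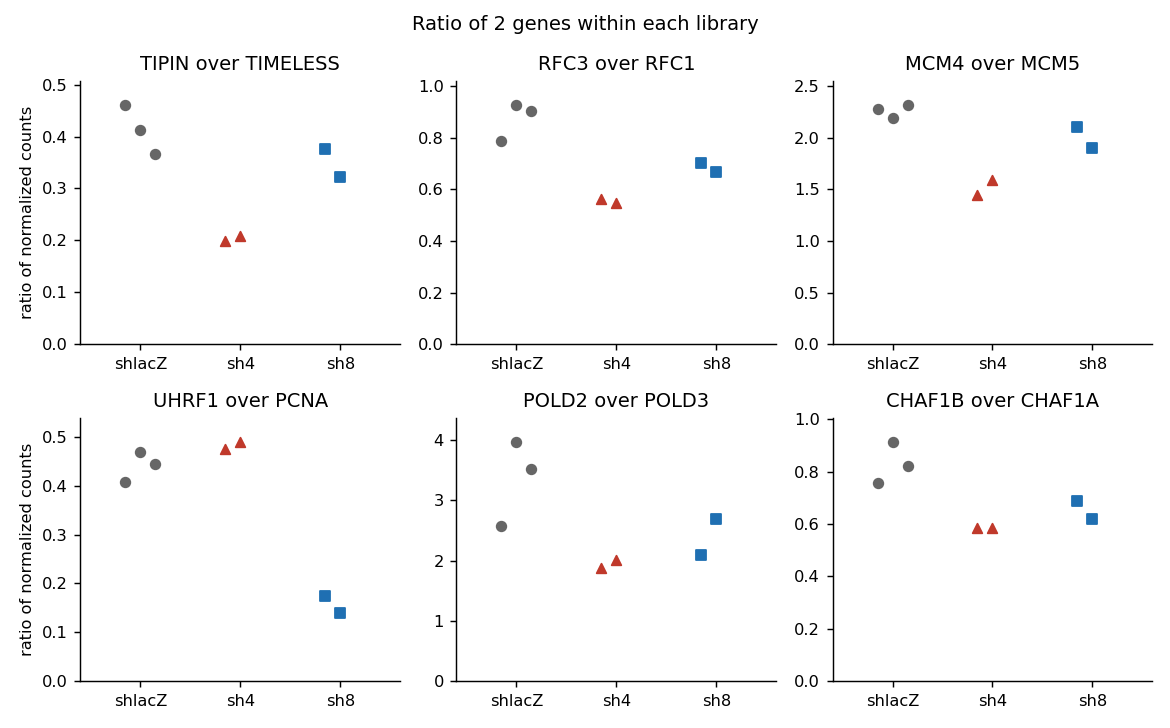
Ratio of the normalized counts of 2 genes in each library, on axes that start at 0, with 1 point per library (grey shlacZ, red sh4, blue sh8). The ratios of RFC3 to RFC1, MCM4 to MCM5 and CHAF1B to CHAF1A are lower in all 4 knockdown libraries than in the controls, and UHRF1 over PCNA is low in sh8 only.

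Levels were compared between genes as normalized counts per kilobase of the canonical GENCODE transcript, in the control libraries. PCNA was highest, at 3864 ± 339 per kilobase (SD, n = 3), followed by TYMS at 1971 ± 457. MCM7 (1448 ± 164), MCM4 (1417 ± 116) and MCM3 (1331.5 ± 135) came next and differed by less than their spread. MCM5 (737 ± 71.4), MCM6 (566 ± 60.2) and MCM2 (542 ± 65.7) were lower, and MCM6 and MCM2 differed by less than their spread. The lowest were POLE2 (166 ± 10.5), POLD3 (160.5 ± 8.04) and POLD1 (148 ± 14.1). The 50 genes are all protein-coding and lie on 21 chromosomes of hg38, at most 5 on the same one (chromosome 19), which holds UHRF1 (chromosome 19, 4903080 to 4962154, plus strand).

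Other genes of the pathway were counted from lists that do not overlap the 50. Of all genes tested, 2.06% were called lower in both hairpins together. Of 23 licensing and firing regulators, 20 were below 0 in both hairpins together, with a median log2 fold change of -0.29, and 2 were called lower (CDC25A and CDK2). CDC25A, the phosphatase that activates CDK2, had 1085, 1591 and 1439 under shlacZ, 683 and 691 under sh4, and 898 and 734 under sh8, and its log2 fold change of -0.86 (SE 0.16, adjusted p 0.0231) was the lowest of that list. MCM9 was the highest, 0.11 (adjusted p 0.722). Of 32 fork, polymerase and maturation factors, 29 were below 0, with a median of -0.29, and 1 was called lower. It was CHTF8, a subunit of an alternative clamp loader, with -0.69 (SE 0.15, adjusted p 0.0349). POLD4, the smallest subunit of polymerase delta, was the highest with 0.88 (adjusted p 0.138) and was called higher under sh4 (log2 fold change 1.23, adjusted p 0.0232), at low counts of 43.3, 38.8 and 57.4 under shlacZ, 92.6 and 128 under sh4, and 48.8 and 90.1 under sh8.

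Of 35 further nucleotide synthesis genes, 29 were below 0, with a median of -0.39, and 3 were called lower, namely PPAT, MTHFD2 and PRPS2. MTHFD2, a mitochondrial enzyme that supplies one-carbon units for purines, was the lowest of the list, with 1806, 2297 and 2094 under shlacZ, 542 and 627 under sh4, and 1302 and 1242 under sh8, and a log2 fold change of -1.25 (SE 0.30, adjusted p 0.0435). The difference between hairpins was -1.12 (adjusted p 0.00305). SAMHD1, which breaks down deoxynucleotides, was the highest, with 488, 464 and 524 under shlacZ, 1344 and 1826 under sh4, and 551 and 681 under sh8, and was called higher under sh4 (log2 fold change 1.67, adjusted p 0.000197) and between hairpins (log2 fold change 1.35, adjusted p 0.00303). Under sh4 the calls lower were 10 of 23, 9 of 32 and 15 of 35 in the 3 lists, against 11.9% of all genes tested. Under sh8 they were 1, 0 and 3, against 1.54%. At an unadjusted p under 0.05 in limma, 6, 10 and 11 were lower under sh8, against 9.69%. Between hairpins, 0, 1 and 5 were called lower under sh4 and 0, 0 and 3 higher, against 3.33% and 3.67% of all genes tested. At an unadjusted p under 0.05 these were 3, 5 and 9 lower and 0, 1 and 3 higher, against 11.3% in each direction.

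Genes of mitosis, a later phase of the cycle, were set beside them. All 24 were below 0 in both hairpins together, with a median of -0.23 and 0 calls in limma, against 2.06% of all genes tested. At an unadjusted p under 0.05, 5 were lower, against 12.9%. Under sh4 all 24 were below 0, with a median of -0.37 and 7 calls lower, against 11.9% of all genes tested. Under sh8 17 were below 0, with a median of -0.14 and 0 calls, against 1.54% called lower. At an unadjusted p under 0.05, 1 was lower, against 9.69%. MAD2L1, a spindle checkpoint protein, was the lowest, -0.66 (adjusted p 0.0726), and KIF11, the spindle motor, the highest, -0.057 (adjusted p 0.816). Between hairpins 23 of the 24 were lower under sh4. There were 0 calls, against 3.33% lower and 3.67% higher of all genes tested. At an unadjusted p under 0.05, 8 were lower, against 11.3%. The medians of the 50 replication genes, -0.43 under sh4 and -0.36 under sh8, stand beside these as a description, since the lists were not tested against each other.

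**Figure D5:**
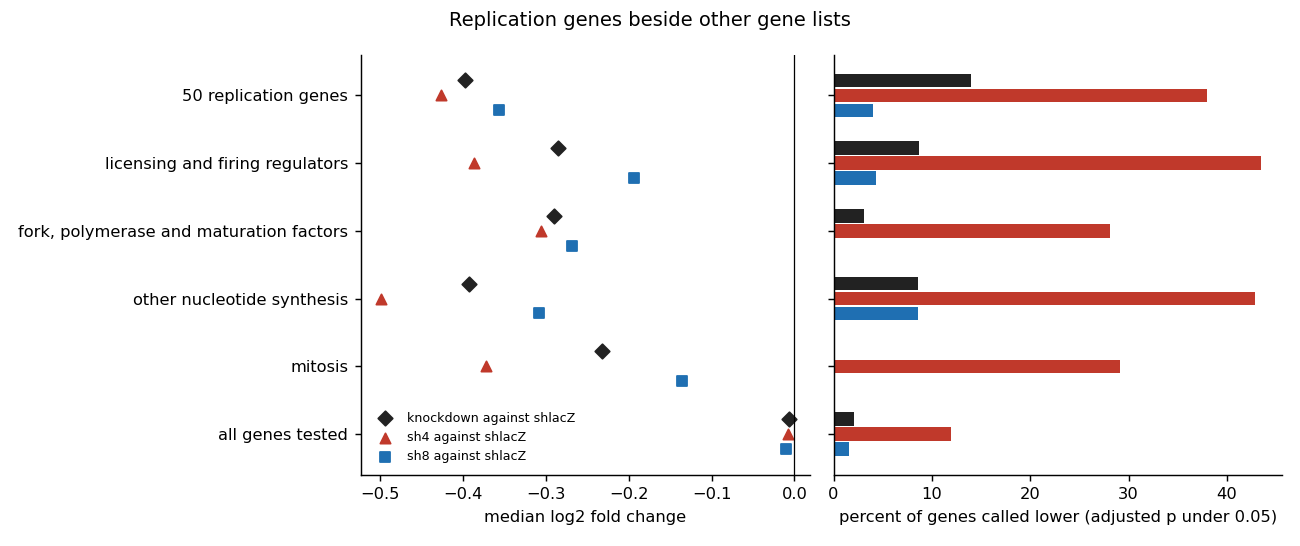
Left, the median log2 fold change of the 50 replication genes, 4 other lists and all genes tested, in both hairpins together (black), sh4 (red) and sh8 (blue) against shlacZ. Right, the percent of genes in each list called lower, where sh4 exceeds sh8 in every list and all genes tested stand at 2.06%, 11.9% and 1.54%.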

How the data were processed

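RNA was sequenced from 7 libraries of 501Mel cells. As the study describes it, total RNA was depleted of ribosomal RNA, stranded libraries were made, adapters were trimmed with Cutadapt, and reads were mapped to hg38 with STAR and quantified with Salmon before DESeq2, at versions not given in the sources used here. The authors deposited 1 table of normalized counts, each a read count divided by the size factor of its library. Such scaling assumes that most genes do not change. All values were whole multiples of 1 step per library within 0.01 read, which gave totals of 13337317 to 22855232 reads. These count the reads in the listed genes, not all reads sequenced. The lowest control mean of a replication gene was 282 normalized counts, so that the number of libraries rather than depth limits the precision. No gene in the table had fewer than 10 reads over the 7 libraries, and 4633 of its 21305 genes had no symbol.

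Values were taken as log2(normalized count + 1), so that folds of low genes are understated. Genes averaging 10 or more normalized counts, 15420 in all, were fitted with limma 3.58.1 (empirical Bayes with a variance trend, two-sided, R 4.3.3), and p-values were adjusted over all of them by the Benjamini-Hochberg method at 0.05. A fit of 2 levels compared both hairpins with shlacZ, and a fit of 3 groups gave each hairpin against shlacZ and sh4 against sh8. Groups came from the sample titles. A test on counts was not made the main one, because the deposited values are scaled and written with decimal commas. The script was tested on simulated data. The rule of the study adds an absolute log2 fold change above 1. Alternatives changed the pseudocount, the minimum mean, the scaling, the variance trend, the use of recovered reads, a replicate block and each library. Coordinates and transcript lengths were from GENCODE 44, whose identifiers matched 21281 genes.

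The 50 genes, the other lists and the markers were chosen with earlier results of these data known. Every library was given for MCM2 to MCM7, CDC6, CDT1, CDC45, PCNA, RRM1, RRM2, TYMS and UHRF1, for the lowest and highest log2 fold change of each role, and for genes called between hairpins. Further genes were named because they were called, and the gene pairs and printed promoters were chosen after values were seen.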

Additional observations from a re-analysis of the deposited data

Results flagged for a closer look

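ORC1, a subunit of the origin recognition complex, had 1 knockdown library far from the rest. Its normalized counts were 634 and 645 under sh4 and 671 in the second sh8 library, but 896 in the first sh8 library, within the controls of 871, 1030.7 and 923. The gap from that library to the nearest of the other 3 was 0.859 of the range of the 4 knockdown libraries, above the critical value of the Dixon test for 4 values. It was the 1 of 50 genes with such a gap, where chance gives about 1 in 20.

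UHRF1, which takes part in copying DNA methylation after the fork, differed between the hairpins by 1.61 on the log2 scale (sh4 minus sh8), with an adjusted p of 0.00194 in limma. The values of the libraries are given with the other chromatin genes, and the difference was past the threshold in all alternatives run.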

How the results depend on the processing

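The median of the 50 genes moved by less than the spread between replicates (SD 0.108) in every alternative, at -0.48 to -0.31 for both hairpins together, -0.48 to -0.33 for sh4, -0.41 to -0.29 for sh8 and -0.19 to -0.025 for sh4 against sh8. For both hairpins together, 590 of 684 alternative values of the 38 genes given by library or called in any comparison kept direction and side of the threshold, 63 lost and 25 gained a call, and 6 turned sign. Single genes moved further, such as RPA3 from -0.29 to -0.00053 and TYMS from -0.62 to -0.28. Those that turned sign were POLD3 with scaling by total counts (0.0089), TIMELESS without the first shlacZ library (-0.074) or either sh4 library (-0.0083 and -0.035), and ORC3 without the second shlacZ library (-0.0165) or the second sh8 library (-0.0127). With 1 library left out TIMELESS lay between -0.074 and 0.098, and ORC3 between -0.0165 and 0.113. The cause was not tested.

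The 7 genes called lower in both hairpins together became 0 without the variance trend, 0 with a replicate block, 0 under the rule of the study and 21 as the mean of the hairpins in the fit of 3 groups. Leaving out 1 library gave 0 to 11. The 318 of all genes called lower became 45 without the trend and 10 with the block. Without the trend, 7.89% of all genes were called lower under sh4 and 0.188% under sh8. In the fit of sh8 and shlacZ alone 1.1% were. Under sh4 the 19 calls became 11 without the trend, and 6 to 29 with 1 library left out. The 2 calls under sh8 became 1 without the trend or in a fit of the 2 groups alone, and 1 to 13 with 1 library left out. The 0 calls lower under sh4 than sh8 became 0 to 2 in the same way. The 25 genes with separate groups became 25 to 38 with 1 library left out and 23 to 28 with other scalings. The share of all genes so separated, 11.0% in the main fit, became 12.1% to 22.9% and 10.2% to 10.8%. Of the 7 calls, GINS4 was lost in 13 of 18 alternatives, CDC6 in 12, RFC3, RFC4 and CHAF1B in 8 each, and MCM4 and MCM10 in 7 each. Scaling by total counts gave 1492 lower and 2182 higher of all genes under sh4, against 1840 and 1624, and 420 lower and 856 higher for sh4 against sh8, against 513 and 566.

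Libraries with the same replicate number did not all deviate together from their group means. The correlation over genes was 0.337 and 0.213 for shlacZ with sh4, 0.117 and -0.0781 for shlacZ with sh8, and 0.0337 for sh4 with sh8. The 2 libraries of a hairpin mirror each other around their mean (correlation -1), so these values are not independent. The numbers were taken as names, and why calls were lost under the block was not tested. With the block, 17 genes were called under sh4, of which 16 were among the 19, and the 2 calls under sh8 were the same genes. Of all genes, 11.4% were then called lower under sh4 and 1.79% under sh8. With 1 library left out, a hairpin with a single library was assumed to vary like the other groups.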
